A study of Homo sapiens with 25 samples.

Results

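Divergent promoter transcripts are long noncoding RNAs whose genes start beside a protein-coding gene and run away from it. In the human gene nomenclature such a gene carries the name of its neighbour with the ending -DT. The 107 genes described here are all symbols with that ending that had a count of 10 or more in at least 3 of 12 RNA libraries, out of 255 such symbols in a table of 28395 gene IDs. Each was set beside its partner, the gene with the same symbol without -DT, and all 107 partners were in the table and annotated as protein coding.

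RNA was counted in A549, an established human lung carcinoma line, here with a mAID degron on TRRAP, the large scaffold protein shared by SAGA and the TIP60 acetyltransferase complex. All 12 libraries came from cells kept in 2 mM thymidine for 20 h and then released into fresh medium for 4 h, which the design text calls synchronized in S phase. Libraries fell into 4 groups of 3. One group had 5-Ph-IAA, the ligand that triggers degradation of mAID-tagged protein, at 1 µM for 6 h together with the CHK1 inhibitor prexasertib for 3 h, and is called both drugs below. Another had 5-Ph-IAA alone, another prexasertib alone, and the last DMSO. The labels of the RNA samples write the prexasertib concentration in mM and those of the chromatin samples in nM, so it is not printed. They also give the genotype as WT although the growth protocol names mAID TRRAP cells, so samples were grouped by title. TRRAP protein levels, the 13 CUT&RUN samples and cells without the degron given 5-Ph-IAA are not analysed here, so an action of the ligand itself cannot be told apart from loss of TRRAP.

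Most active mammalian promoters fire RNA polymerase II in both directions. On the upstream side the transcript usually ends early at a polyadenylation signal that is not shielded by U1 snRNP, and the nuclear exosome, guided by adaptor complexes, degrades it. The -DT genes of the annotation are those upstream transcripts that are spliced or stable enough to be catalogued, and poly(A) selection, as used here, sees only their polyadenylated form.

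The start regions of 5 divergent transcripts that changed when 5-Ph-IAA was added, and of 1 that changed with prexasertib, are shown because the results turn on these genes. Each line gives 300 bases from RefSeq (GRCh38.p14) on the transcript's own strand, 250 before its start and 50 after it. Capitals mark CCAAT or ATTGG (the box bound by NF-Y), CCGGAAG or CTTCCGG (an ETS-factor site), CACGTG (the E-box bound by MYC-MAX) and TTTGAA or TTCAAA (the element bound by MuvB).
BAIAP2-DT, chr17:81034670-81034969, minus strand: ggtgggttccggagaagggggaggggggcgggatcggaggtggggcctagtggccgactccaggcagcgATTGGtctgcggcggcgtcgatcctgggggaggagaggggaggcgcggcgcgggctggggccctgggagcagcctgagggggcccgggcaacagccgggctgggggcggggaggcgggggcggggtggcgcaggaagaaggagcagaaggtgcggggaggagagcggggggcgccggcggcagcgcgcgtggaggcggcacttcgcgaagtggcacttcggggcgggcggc
SRP14-DT, chr15:40039061-40039360, plus strand: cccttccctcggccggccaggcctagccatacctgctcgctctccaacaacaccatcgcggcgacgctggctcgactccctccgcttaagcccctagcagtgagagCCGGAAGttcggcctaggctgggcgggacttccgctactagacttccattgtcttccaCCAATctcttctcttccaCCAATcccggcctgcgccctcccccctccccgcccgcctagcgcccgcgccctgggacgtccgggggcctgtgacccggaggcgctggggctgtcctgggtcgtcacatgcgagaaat
TMEM161B-DT, chr5:88268766-88269065, plus strand: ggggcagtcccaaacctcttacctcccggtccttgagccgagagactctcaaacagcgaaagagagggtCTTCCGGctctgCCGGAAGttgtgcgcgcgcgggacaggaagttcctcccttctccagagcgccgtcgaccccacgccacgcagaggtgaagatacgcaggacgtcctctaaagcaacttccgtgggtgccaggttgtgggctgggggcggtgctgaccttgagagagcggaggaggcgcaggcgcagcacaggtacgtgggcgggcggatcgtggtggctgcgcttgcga
ANKRD13C-DT, chr1:70354561-70354860, plus strand: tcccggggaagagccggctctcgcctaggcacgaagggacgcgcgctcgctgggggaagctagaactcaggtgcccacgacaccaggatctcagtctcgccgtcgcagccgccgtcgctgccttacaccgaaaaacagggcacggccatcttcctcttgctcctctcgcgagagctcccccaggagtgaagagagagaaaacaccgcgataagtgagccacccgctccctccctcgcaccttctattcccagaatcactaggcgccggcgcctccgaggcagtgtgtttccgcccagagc
RNASEH1-DT, chr2:3558136-3558435, plus strand: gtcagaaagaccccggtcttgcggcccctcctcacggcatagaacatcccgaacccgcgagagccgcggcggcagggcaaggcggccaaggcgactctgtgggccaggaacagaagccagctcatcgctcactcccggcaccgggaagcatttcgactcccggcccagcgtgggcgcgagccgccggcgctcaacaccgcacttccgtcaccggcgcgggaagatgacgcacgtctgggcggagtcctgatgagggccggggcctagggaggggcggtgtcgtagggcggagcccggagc
OSER1-DT, chr20:44210710-44211009, plus strand: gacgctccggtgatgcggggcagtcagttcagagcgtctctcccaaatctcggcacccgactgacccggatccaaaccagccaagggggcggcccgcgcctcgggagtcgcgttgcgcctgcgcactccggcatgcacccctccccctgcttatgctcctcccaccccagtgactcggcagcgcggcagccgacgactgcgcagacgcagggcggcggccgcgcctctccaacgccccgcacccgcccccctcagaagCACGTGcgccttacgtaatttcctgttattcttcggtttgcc
The transcript of the partner starts on the other strand 53 bases upstream of the RNASEH1-DT start, 89 bases upstream for ANKRD13C-DT and 109 for SRP14-DT. The distance was 171 bases for TMEM161B-DT, 189 for OSER1-DT and 432 for BAIAP2-DT, so in 5 of these 6 windows, all but that of BAIAP2-DT, the partner's start lies inside the printed bases. The SRP14-DT window holds 2 CCAAT boxes and 1 ETS site, that of TMEM161B-DT 2 ETS sites, that of BAIAP2-DT 1 ATTGG and that of OSER1-DT 1 E-box. None of these letters occur in the ANKRD13C-DT and RNASEH1-DT windows.

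Such windows were found for 89 of the 107 genes. Their median GC content was 69.7%, beside 68.0% for 86 partner promoters and 58.3% over the 27305 promoters of the table, and they held a median of 31 CpG dinucleotides against 14 over all promoters. Of the 89 windows, 25.8% held CCGGAAG on either strand, against 10.7% of all promoters. The CCAAT box was found in 29.2% against 35.7%, CACGTG in 8.99% against 7.43%, and TTTGAA in 5.62% against 15.4%. TATAAA or TTTATA was in 3.37% of the divergent windows and in 12.0% of all. These shares differ between windows that also differ in GC content, and a match describes letters, not binding.

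Both strands were known for 82 pairs, and in all 82 the transcripts lay on opposite strands. The median distance between the starts was 138 bases, and 75 pairs lay within 500 bases. The range ran from -20515 bases for ZNF567-DT, all 2011 bases of which lie inside the span of ZNF567, to 16956 bases for GARS1-DT. The span of 16 divergent genes overlapped that of the partner and that of 21 overlapped another gene. The strand setting of the counting is not given in the sources used here, so reads from an overlapping gene on the other strand cannot be told apart from theirs.

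The libraries held 10830048 to 17789482 counts, and the biological coefficient of variation over the 14658 genes tested was 12.8%. Libraries numbered 3 stood apart in all 4 groups: the first component of the deviations from the group means held 51.8% of that variance and put them at 30.1 to 35.1, against -21.2 to -13.8 for the others. Counts of calls below are therefore also given without them. Same-numbered libraries of different groups correlated at 0.22 to 0.633 in these deviations, beside -0.503 to 0.366 for libraries of other numbers. Only those numbered 3 were clearly apart, and 8 of 12 libraries correlated best with their own number. Counts of calls are also given with the replicate number as a block, each with the share of all genes called in the same fit. Of the 10 lung epithelial markers none was at 0 and they summed to 20500 to 24200 CPM (counts scaled to a common library size) in groups with 5-Ph-IAA and to 23500 to 27800 CPM in groups without it. Of the 18 markers of blood, stromal, endothelial, neural and other cells, the summed level was 84.9 to 110 CPM with 5-Ph-IAA and 95.2 to 112 CPM without. SNAP25 at 48.5 CPM and COL1A1 at 31.8 CPM made up most of it, while CD3E, HBB and DCN had at most 0.0124 CPM on average. Among the epithelial markers EPCAM was nearly absent at 0.798 CPM and KRT19 low at 4.22 CPM, while KRT8 averaged 3263 CPM. The part of such differences in the results was not tested. In bulk RNA, fewer cells with a transcript and less of it per cell cannot be told apart.

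The 107 divergent transcripts held 0.0347% of all counts. Levels are given as CPM on library sizes scaled by TMM, edgeR's trimmed mean scaling, and are not corrected for transcript length. The mean over 12 libraries ran from 0.435 to 30.8 CPM with a median of 2.05, and 31 of the 107 lay under 1 CPM. Of the 107, 57 had a count of 10 or more in every library. The 6 with exactly 3 such libraries (KIF26A-DT, LRRC8C-DT, LYPLAL1-DT, PTGES2-DT, RNFT1-DT and RPP38-DT) had counts of 0 to 19, and the 5 symbols with only 2 (AFTPH-DT, EFCAB13-DT, ODC1-DT, STK4-DT and USP46-DT) had counts of 0 to 17.

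The entry rule was not neutral between the groups. Of the 107, 10 entered only through libraries with 5-Ph-IAA: BMPR1B-DT, EPM2A-DT, LRRC8C-DT, OSMR-DT, PTGES2-DT, RNF139-DT, RNFT1-DT, VPS33B-DT, ZNF230-DT and ZNF594-DT. None entered only through libraries without it. Of the 107, 27 reached a count of 10 in fewer than 3 libraries without 5-Ph-IAA, and so needed libraries with it to enter. MAGOH-DT, KBTBD6-DT and TNKS2-DT were among them. Only 5 had fewer than 3 among the libraries with it. Counts and medians over the divergent transcripts are therefore a description of those that entered, and values for the 87 with a mean count of at least 10 over all libraries, or for those other than the 10, are set beside them. Neither of these sets leaves out all of the 27. For the 10 themselves a rise with 5-Ph-IAA was fixed by how they entered, and where one is named below its counts are given without a test.

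The divergent transcripts with the most reads had no common direction. C2orf74-DT, the neighbour of an uncharacterized gene, led with 32.2, 32.5 and 31.7 CPM with both drugs, 27.9, 27.2 and 32.5 CPM with 5-Ph-IAA, 33.9, 31.3 and 36.0 CPM with prexasertib and 28.2, 26.3 and 30.0 CPM with DMSO (replicates 1, 2 and 3 in each case). The prexasertib libraries lay above those with DMSO, the groups with and without 5-Ph-IAA overlapped, and it passed no test. SLC12A2-DT, beside the gene of the sodium-potassium-chloride cotransporter NKCC1, averaged 10.9 ± 1.37 CPM with both drugs, 9.46 ± 0.652 CPM with 5-Ph-IAA, 12.1 ± 0.887 CPM with prexasertib and 11.2 ± 0.844 CPM with DMSO (SD, n = 3). ZFAND2A-DT, beside the gene of the arsenite-inducible proteasome-associated protein AIRAP, averaged 13.6 ± 1.33 CPM with both drugs, 12.8 ± 1.61 CPM with 5-Ph-IAA, 9.11 ± 2.06 CPM with prexasertib and 10.1 ± 3.30 CPM with DMSO. No comparison of groups called it. Its ratio to ZFAND2A did rise with 5-Ph-IAA in the ratio test described below (log2 0.79 ± 0.15, limma adjusted p = 0.000737). The other 3 above 10 CPM were BAIAP2-DT, RNASEH1-DT and ANKRD13C-DT, described below.

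Summed over the 107, the level was 384.5 ± 7.09 CPM with both drugs, 357.7 ± 21.8 CPM with 5-Ph-IAA, 331.6 ± 13.8 CPM with prexasertib and 307.7 ± 17.6 CPM with DMSO (SD, n = 3). Over all 255 symbols, with no filter on counts, the sums were 406.4 ± 6.87, 377.3 ± 21.9, 346.8 ± 12.0 and 321.5 ± 17.7 CPM in the same order of groups. The libraries numbered 3 were the highest of their group in each case. Without TMM scaling, the 107 took 0.0376% to 0.0398% of the counts of a library with 5-Ph-IAA and 0.0282% to 0.0321% of one without it.

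**Figure D1:**
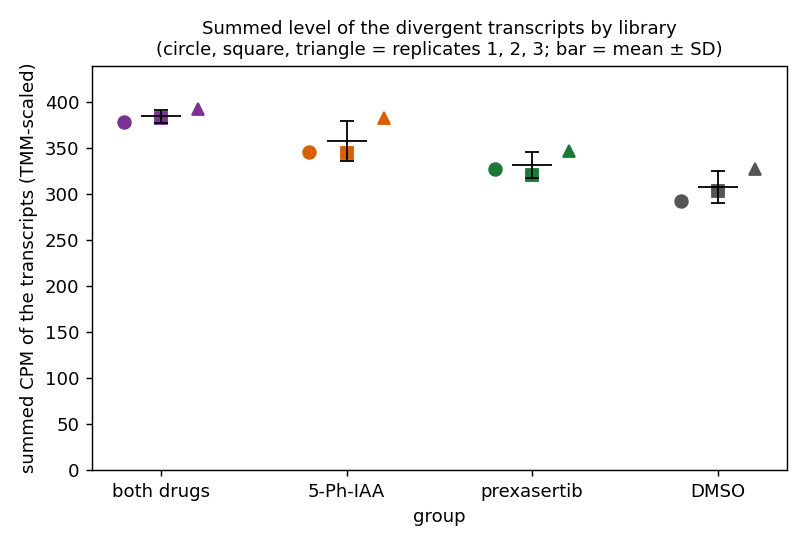
Summed CPM (TMM-scaled, vertical axis from 0) of the 107 divergent transcripts in each library, by group from both drugs to DMSO; symbols are the replicates and bars the mean ± SD over 3 libraries. Group means ran from 384.5 CPM with both drugs to 307.7 CPM with DMSO, and the 3 libraries with both drugs lay above all 3 with prexasertib.

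The comparison of 5-Ph-IAA with DMSO asks what the ligand did without the CHK1 inhibitor. Of 102 divergent transcripts tested, 11 rose and 1 fell at an adjusted p under 0.05 (edgeR's quasi-likelihood test, Benjamini-Hochberg over all genes). Among all genes tested, 9.65% were called higher and 12.2% lower, so the share that rose was near the background and the share that fell below it. Genes of like abundance, described further below, also rarely fell. Leaving out 5-Ph-IAA replicate 2 left 6 called higher, and leaving out 5-Ph-IAA replicate 1 or DMSO replicate 2 left 7. The median log2 fold change was 0.38, beside 0.006 over all genes. For the 87 with a mean count of at least 10 it was 0.35, with 9 called higher and 1 lower, and 10 rose and 1 fell of the 95 that did not enter through 5-Ph-IAA libraries alone. The 5 not tested, KIF26A-DT, LRRC8C-DT, LYPLAL1-DT, PTGES2-DT and RNFT1-DT, failed edgeR's filter on low counts.

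BAIAP2-DT, which neighbours the gene of the membrane-bending actin regulator IRSp53, had the smallest adjusted p of the 102. It had 17.4, 23.1 and 23.97 CPM with 5-Ph-IAA, against 9.80, 10.7 and 12.2 CPM with DMSO. Every library with 5-Ph-IAA lay above every DMSO library, and the log2 fold change was 0.98 ± 0.16 (± SE, derived from the F statistic; edgeR adjusted p = 0.000734). BAIAP2 itself rose by less, with 67.7, 68.2 and 85.7 CPM with 5-Ph-IAA against 53.6, 49.8 and 56.4 CPM with DMSO (log2 fold change 0.47 ± 0.098, edgeR adjusted p = 0.0041).

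SRP14-DT, beside the gene of a signal recognition particle subunit, had 5.27, 5.34 and 5.54 CPM with 5-Ph-IAA, against 2.79, 3.26 and 2.49 CPM with DMSO. The groups did not overlap (log2 fold change 0.92 ± 0.22, edgeR adjusted p = 0.00889). SRP14 had 168, 159.7 and 182 CPM with 5-Ph-IAA, against 181, 172 and 174 CPM with DMSO, and did not pass the test (-0.05 ± 0.079, edgeR adjusted p = 0.723). TMEM161B-DT, beside the gene of a multi-pass membrane protein, had 3.12, 3.44 and 3.34 CPM with 5-Ph-IAA, against 1.51, 1.67 and 1.48 CPM with DMSO. Again the groups were apart, and the log2 fold change was 1.09 ± 0.23 (edgeR adjusted p = 0.00468), while TMEM161B gave 0.33 ± 0.18 (edgeR adjusted p = 0.202). The span of TMEM161B-DT overlaps LINC02060, which had too few counts to be tested.

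ANKRD13C-DT, next to the gene of an ankyrin-repeat protein of the endoplasmic reticulum, had 14.3, 11.8 and 10.4 CPM with 5-Ph-IAA, against 8.74, 7.48 and 8.02 CPM with DMSO. The change was 0.59 ± 0.16 (log2, edgeR adjusted p = 0.02), and ANKRD13C gave 0.20 ± 0.13 (edgeR adjusted p = 0.303). C2orf49-DT had 4.09, 4.01 and 3.03 CPM with 5-Ph-IAA, against 1.66, 2.46 and 2.18 CPM with DMSO, a change of 0.83 ± 0.23 (edgeR adjusted p = 0.0199). Its partner C2orf49, which encodes ashwin, a component of the tRNA splicing ligase complex, also rose, by 0.36 ± 0.11 (edgeR adjusted p = 0.0386). MOCS2-DT, beside the gene of molybdopterin synthase, had 4.38, 4.68 and 4.63 CPM with 5-Ph-IAA, against 2.86, 2.11 and 3.42 CPM with DMSO (0.70 ± 0.22, edgeR adjusted p = 0.0358). MOCS2 rose by 0.29 ± 0.075 (edgeR adjusted p = 0.0134), so BAIAP2, C2orf49 and MOCS2 were the 3 pairs in which both genes were called higher.

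The other 5 that rose had an annotated overlap or few reads. MAGOH-DT, KBTBD6-DT and TNKS2-DT would not have entered without libraries with 5-Ph-IAA, so their p-values are not independent of that rule. MAGOH-DT, beside the gene of an exon junction complex core protein, had 29, 34 and 28 counts with 5-Ph-IAA, against 8, 6 and 4 counts with DMSO (2.04 ± 0.46, edgeR adjusted p = 0.00671). Its span overlaps LRP8, a lipoprotein receptor gene, which fell by 0.82 (log2, SE 0.123, edgeR adjusted p = 0.000437), so the pair moved in opposite directions. COPB2-DT, beside the gene of a coatomer subunit, had 2.01, 2.47 and 2.43 CPM with 5-Ph-IAA, against 1.58, 0.968 and 1.17 CPM with DMSO (0.88 ± 0.28, edgeR adjusted p = 0.0383), and was not called by DESeq2 or without the libraries numbered 3. Its span overlaps 3 other genes, NMNAT3 among them. KBTBD6-DT, beside the gene of a CUL3 substrate adaptor, had 11, 30 and 13 counts with 5-Ph-IAA, against 7, 3 and 1 counts with DMSO (1.92 ± 0.53, edgeR adjusted p = 0.0185). Dropping 5-Ph-IAA replicate 2, DMSO replicate 2 or DMSO replicate 3 ended the call. It overlaps KBTBD7 and MTRF1, of which neither passed the test. ZNF230-DT, one of the 10 that entered only through libraries with 5-Ph-IAA, had 16, 19 and 9 counts with the ligand, against 4, 2 and 4 with DMSO. TNKS2-DT, beside the gene of tankyrase 2, had 8, 17 and 8 counts with 5-Ph-IAA, against 0, 1 and 2 with DMSO (edgeR adjusted p = 0.00983), too few for a stable fold.

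RNASEH1-DT was the 1 divergent transcript that fell. RNASEH1 encodes the nuclease that removes RNA from RNA-DNA hybrids. RNASEH1-DT had 9.06, 9.10 and 11.3 CPM with 5-Ph-IAA, against 15.6, 11.4 and 16.2 CPM with DMSO, and the groups only just failed to overlap. The log2 fold change was -0.56 ± 0.17 (edgeR adjusted p = 0.0358), and RNASEH1 gave -0.33 ± 0.13 (edgeR adjusted p = 0.0831). With library size as the only scaling, which gave all genes a median of 0.164, the call was lost. Leaving out any 1 of 4 libraries also lost it (replicates 1 and 2 of 5-Ph-IAA, replicates 1 and 3 of DMSO).

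All 3 libraries with 5-Ph-IAA lay above all 3 with DMSO for 27 of the 102, beside 18.5% of all genes, and below for 6, beside 18.9%. With the replicate block 23 were called higher and 4 lower, or 22.5% and 3.92%, beside 19.0% and 23.6% of all genes in that fit. Without the libraries numbered 3 the counts were 15 and 2, or 14.7% and 1.96%, beside 16.7% and 19.3%. Of the 95 that did not enter through 5-Ph-IAA libraries alone, 20 were higher and 4 lower with the block. Without the libraries numbered 3, 13 of them were higher and 2 lower. With library size as the only scaling 22 of the 102 were higher and 0 lower, where the calls over all genes split into 3018 higher and 986 lower (1414 and 1787 with TMM).

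**Figure D2:**
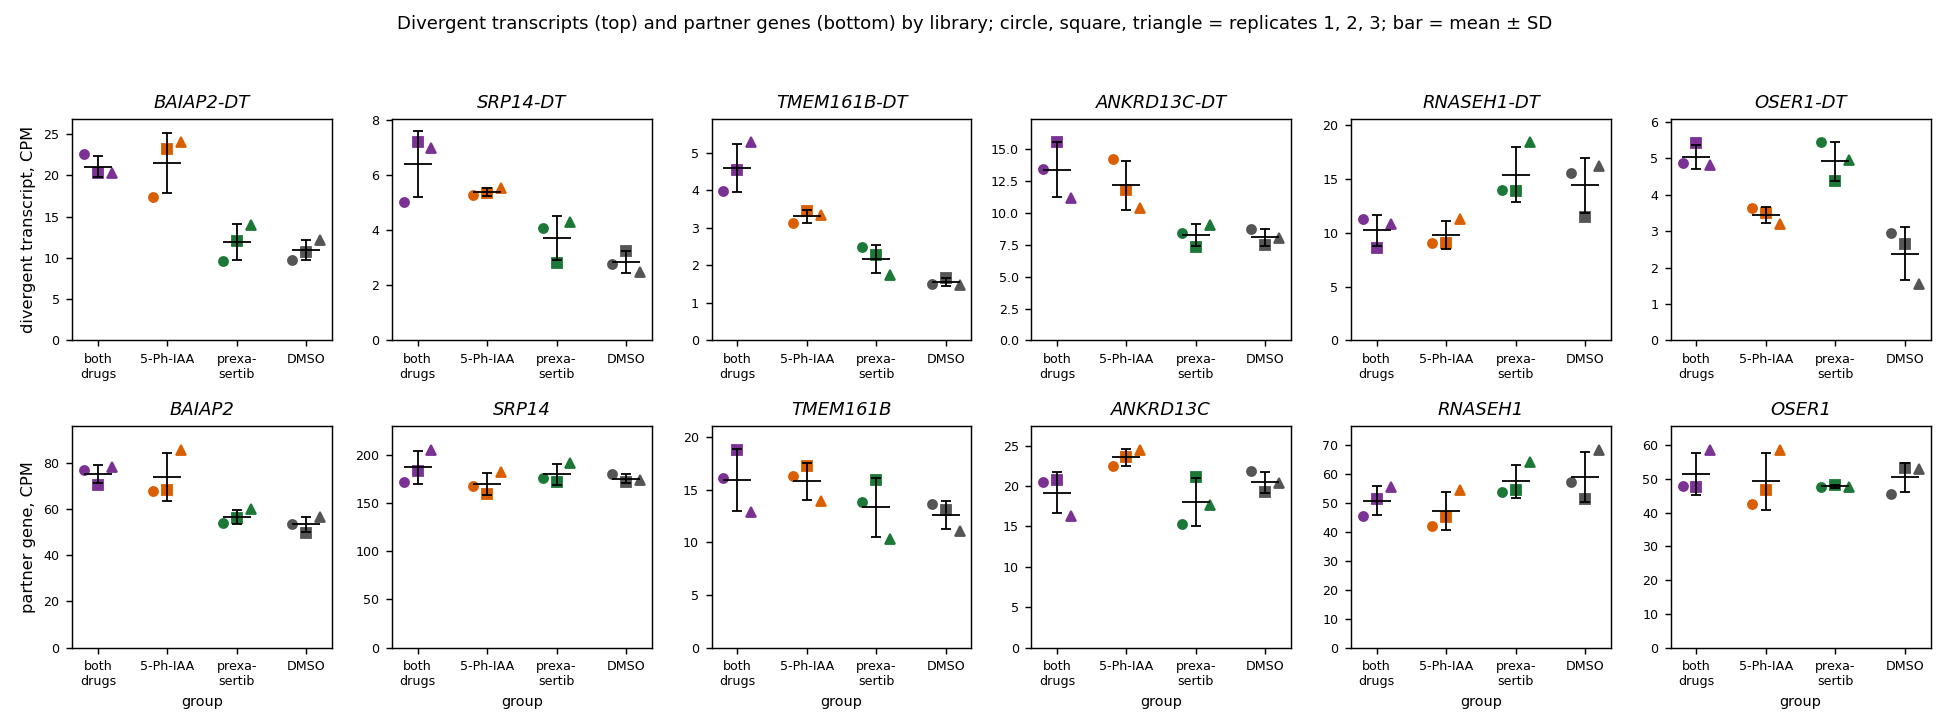
CPM (TMM-scaled, axes from 0) by library of 6 divergent transcripts (top row) and their partners (bottom row), by group from both drugs to DMSO; symbols are the replicates and bars the mean ± SD over 3 libraries. BAIAP2-DT averaged 21.0 CPM with both drugs and 21.5 CPM with 5-Ph-IAA, against 11.9 CPM with prexasertib and 10.9 CPM with DMSO, while SRP14 lay between 170.1 and 187 CPM in all 4 groups.

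Both drugs against prexasertib asks the same of the ligand in cells that also had the inhibitor, with no library shared with the comparison above. Of the 102, 8 rose and 1 fell, beside 7.85% called higher and 10.4% lower over all genes. The median log2 fold change was 0.35, against 0.01 over all genes, and for the 87 with a mean count of at least 10 it was 0.31 with 7 higher and 1 lower. Of the 95 that did not enter through 5-Ph-IAA libraries alone, 7 rose and 1 fell. Leaving out both-drugs replicate 2 left 4 called higher, and leaving out both-drugs replicate 3, prexasertib replicate 1 or prexasertib replicate 2 left 5. With the replicate block 19 were higher and 4 lower (18.6% and 3.92%), beside 17.2% and 19.9% of all genes in that fit. Without the libraries numbered 3 the counts were 13 and 2 (12.7% and 1.96%), beside 13.1% and 17.4%. Of those 95, 17 were higher and 4 lower with the block, and 12 and 2 without the libraries numbered 3. In that last fit the median log2 fold change was 0.34 over the 102 and 0.15 over the 95. All 3 libraries with both drugs lay above all 3 with prexasertib for 26 of the 102, beside 17.6% of all genes, and below for 5, beside 17.6%.

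BAIAP2-DT, SRP14-DT, TMEM161B-DT and ANKRD13C-DT rose and RNASEH1-DT fell here too. BAIAP2-DT had 22.5, 20.2 and 20.3 CPM with both drugs, against 9.66, 12.0 and 14.0 CPM with prexasertib (0.83 ± 0.16, edgeR adjusted p = 0.00281). TMEM161B-DT had 3.98, 4.53 and 5.27 CPM with both drugs, against 2.47, 2.27 and 1.74 CPM with prexasertib (1.08 ± 0.22, edgeR adjusted p = 0.00455). ANKRD13C-DT had 13.5, 15.5 and 11.2 CPM with both drugs, against 8.46, 7.36 and 9.07 CPM with prexasertib (0.69 ± 0.16, edgeR adjusted p = 0.0104). In each of these 3 the groups were apart. SRP14-DT had 5.01, 7.19 and 6.97 CPM with both drugs, against 4.07, 2.82 and 4.30 CPM with prexasertib (0.77 ± 0.22, edgeR adjusted p = 0.0245), a call that ended without both-drugs replicate 2 or 3 or prexasertib replicate 2. RNASEH1-DT had 11.3, 8.61 and 10.8 CPM with both drugs, against 14.0, 13.9 and 18.4 CPM with prexasertib (-0.59 ± 0.18, edgeR adjusted p = 0.0331). Of these 5 partners, BAIAP2 was called higher (0.41 ± 0.098, edgeR adjusted p = 0.0108) and the others were not called.

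The other 4 that rose were ATP6AP1-DT, DPY19L3-DT, EPCAM-DT and EPM2A-DT. ATP6AP1-DT, beside the gene of a proton-pump accessory subunit, had 3.64, 3.99 and 2.97 CPM with both drugs, against 1.36, 1.64 and 2.38 CPM with prexasertib (0.98 ± 0.31, edgeR adjusted p = 0.0429). DPY19L3-DT, beside the gene of a C-mannosyltransferase, had 5.22, 5.41 and 6.68 CPM with both drugs, against 4.15, 2.27 and 3.11 CPM with prexasertib (0.85 ± 0.25, edgeR adjusted p = 0.0296). The DPY19L3-DT call ended without any 1 of the both-drugs libraries or without prexasertib replicate 2 or 3. The ATP6AP1-DT call ended in 7 of the 12 fits that leave out 1 library. Their groups did not overlap, and against DMSO the ligand alone gave 0.88 ± 0.3 for ATP6AP1-DT (edgeR adjusted p = 0.0516) and 0.70 ± 0.25 for DPY19L3-DT (edgeR adjusted p = 0.0591). EPCAM-DT, named after the gene of an epithelial adhesion molecule, had 1.30, 2.04 and 1.71 CPM with both drugs, against 0.719, 0.909 and 0.733 CPM with prexasertib (1.08 ± 0.33, edgeR adjusted p = 0.035), and was not called by DESeq2 or without the libraries numbered 3. It overlaps BCYRN1, which gave 0.20 ± 0.367 (edgeR adjusted p = 0.774). The span of EPCAM begins at base 47369311 of chromosome 2, well past the end of EPCAM-DT at 47345074. EPM2A-DT, beside the gene of the glycogen phosphatase laforin, had 13, 11 and 32 counts with both drugs, against 4, 5 and 0 counts with prexasertib, and entered only through libraries with 5-Ph-IAA.

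The effect of the CHK1 inhibitor without the ligand was read from prexasertib against DMSO. Of the 102, 2 rose and 0 fell in edgeR's test, beside 2.36% called higher and 2.37% lower over all genes. At an unadjusted p under 0.05, 9 were higher and 1 lower, and DESeq2 and limma-voom also called 2 higher and 0 lower. The median log2 fold change was 0.12, against -0.004 over all genes, and 0.11 for the 87 with a mean count of at least 10. All 3 libraries with prexasertib lay above all 3 with DMSO for 13, beside 9.78% of all genes, and below for 2, beside 11.3%. With the replicate block 8 were higher and 1 lower (7.84% and 0.98%), beside 8.37% and 9.77% of all genes in that fit. Without the libraries numbered 3 the counts were 5 and 0 (4.90% and 0%), beside 7.20% and 7.01%. Leaving out prexasertib replicate 1 left 0 called, and leaving out prexasertib replicate 2 or DMSO replicate 1 or 3 left 1.

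OSER1-DT, beside the gene of an oxidative-stress-responsive serine-rich protein, had 5.43, 4.36 and 4.94 CPM with prexasertib, against 2.94, 2.64 and 1.56 CPM with DMSO. The groups did not overlap (1.05 ± 0.23, edgeR adjusted p = 0.0214), and OSER1 gave -0.08 ± 0.12 (edgeR adjusted p = 0.832). The spans of OSER1-DT and OSER1 overlap by 851 bases, and reads from that stretch cannot be told apart. With both drugs OSER1-DT had 4.87, 5.41 and 4.82 CPM, against 3.64, 3.49 and 3.19 CPM with 5-Ph-IAA, apart again but not called (0.55 ± 0.22, edgeR adjusted p = 0.275). C2orf49-DT had 4.63, 4.63 and 4.03 CPM with prexasertib, against 1.66, 2.46 and 2.18 CPM with DMSO (1.08 ± 0.23, edgeR adjusted p = 0.0169), and C2orf49 gave 0.21 ± 0.11 (edgeR adjusted p = 0.38). This comparison and that of 5-Ph-IAA with DMSO share the DMSO libraries, which are the low group for C2orf49-DT in both. With both drugs C2orf49-DT had 4.33, 5.77 and 4.53 CPM, beside 4.63, 4.63 and 4.03 CPM with prexasertib alone, and those groups overlapped.

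Both drugs against 5-Ph-IAA called 0 of the 102 in either direction with edgeR, DESeq2 or limma-voom, beside 1.17% of all genes higher and 1.26% lower with edgeR. At an unadjusted p under 0.05, 7 were higher and 0 lower, and the median log2 fold change was 0.13 against 0.01 over all genes. All 3 libraries with both drugs lay above all 3 with 5-Ph-IAA for 10, beside 8.87% of all genes, and below for 3, beside 10.7%. For the 87 with a mean count of at least 10 the median was 0.10. Fitted with the block, 4 were called higher (3.92%), beside 7.80% of all genes, and without the libraries numbered 3, 1 was (0.98%), beside 6.18%. NUP50-DT, beside the gene of a nuclear pore protein, had 8.03, 9.50 and 10.9 CPM with both drugs, 5.05, 6.89 and 7.05 CPM with 5-Ph-IAA, 6.39, 5.54 and 7.33 CPM with prexasertib and 4.22, 3.87 and 4.75 CPM with DMSO. It was not called in any of the comparisons, at 0.58 ± 0.18 for both drugs against 5-Ph-IAA (edgeR adjusted p = 0.141).

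The interaction of the 2 drugs, which asks whether their joint effect departed from the sum of the log2 effects, was called for 0 of the 102 by edgeR, beside 0% of all genes. Without adjustment, 2 positive and 3 negative values had a p under 0.05, and DESeq2 and limma-voom also called 0. The count was 0 with the replicate block too, beside 0.375% of all genes positive and 0.28% negative, and without the libraries numbered 3, beside 0.631% and 0.638%. Nothing here shows that the ligand acted differently with and without the inhibitor on these transcripts, nor that it acted alike.

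The direction of the partner genes depended on the scaling, as did that of all genes tested. Of 105 partners tested, 8 rose and 16 fell with 5-Ph-IAA against DMSO, with a median log2 fold change of -0.05. These were 7.62% and 15.2%, beside 9.65% and 12.2% of all genes. With both drugs against prexasertib, 8 rose and 12 fell with a median of -0.02 (7.62% and 11.4%, beside 7.85% and 10.4% of all genes). Scaled by library size alone, these splits turned, to 17 higher and 5 lower (median 0.11) against DMSO and to 21 higher and 4 lower (median 0.12) against prexasertib. All genes turned too, to 3018 higher and 986 lower against DMSO and to 2569 and 889 against prexasertib. The block gave 15 higher and 29 lower against DMSO (14.3% and 27.6%, beside 19.0% and 23.6% of all genes). Against prexasertib it gave 14 and 25 (13.3% and 23.8%, beside 17.2% and 19.9%). Dropping the libraries numbered 3 gave 12 and 28 against DMSO (11.4% and 26.7%, beside 16.7% and 19.3% of all genes). Against prexasertib it gave 13 and 20 (12.4% and 19.0%, beside 13.1% and 17.4%). Among the partners that fell was ICMT, the enzyme that methylates prenylated cysteine (-0.62 ± 0.075, edgeR adjusted p = 9.26e-05). SP2, a zinc-finger transcription factor, had the largest rise against DMSO (0.78 ± 0.11, edgeR adjusted p = 0.000263). ICMT is named here after its values were seen.

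Across 100 pairs with both genes tested, the log2 fold changes of the divergent transcript and its partner had a Pearson correlation of 0.262 with 5-Ph-IAA against DMSO and of 0.301 with both drugs against prexasertib. For prexasertib against DMSO it was 0.0366, and for both drugs against 5-Ph-IAA -0.0196. Head-to-head pairs of 2 protein-coding genes, of which 842 were tested, gave 0.242, 0.172, 0.0958 and 0.0822 in the same order. The points share libraries and a start region, many divergent values are noisy, and no test was made. The sign was shared by 56 of 100 pairs with 5-Ph-IAA against DMSO and by 57.2% of the 842.

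**Figure D3:**
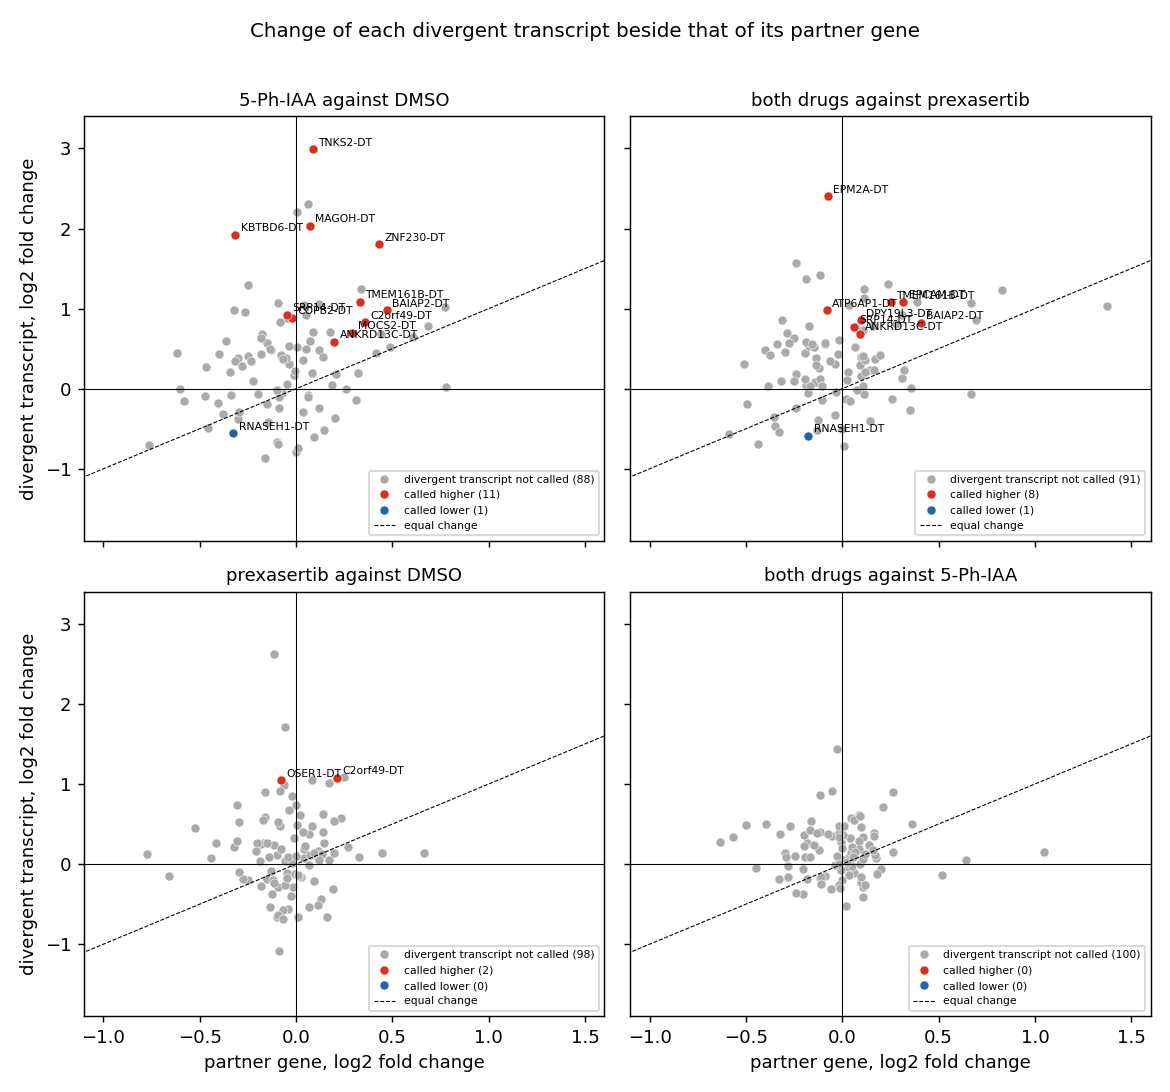
Log2 fold change of each divergent transcript (vertical axis) beside that of its partner (horizontal axis) over 100 pairs in 4 comparisons; red and blue mark divergent transcripts called higher and lower, and the dashed line marks equal change. Points lie mostly above the dashed line where 5-Ph-IAA was added (75 of 100 in each of those 2 comparisons), and the 11 red points against DMSO span partner changes on both sides of 0. The 2 axes are not matched for abundance: the median level was 2.05 CPM for divergent transcripts and 40.6 CPM for partners.

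Whether the divergent transcript and its partner changed by unequal amounts was tested on the log2 ratio of the one to the other in each library (prior count of 2, limma over 1147 head-to-head pairs), averaged over the arms of the other drug. With 5-Ph-IAA the ratio rose for 26 of 100 divergent pairs and fell for 3. Over all 1147 pairs 21.3% rose and 19.4% fell, but most of these have no divergent side, so their split by direction is no reference. In either direction, 29% of the divergent pairs were called, beside 41.8% of the other 1047. The median was 0.31 on the log2 scale with 78 of 100 positive. For the 85 pairs whose divergent transcript had a mean count of at least 10 it was 0.31, with 23 higher and 3 lower. Of the 93 pairs other than those that entered through 5-Ph-IAA libraries alone, 24 rose and 3 fell. The other 1047 pairs, taken as plus-strand over minus-strand gene, had a median of -0.01 with 218 higher and 220 lower, which has no divergent side. Nor were they matched for abundance: the median level was 2.05 CPM for divergent transcripts and 40.6 CPM for partners. Weak genes rose with 5-Ph-IAA in general, with a median of 0.36 against DMSO for others at log2 CPM from -1 to 1. The part of this gap in the ratios was not tested. With the replicate block 33 were higher and 7 lower, beside 26.7% and 25.3% of all pairs, and without the libraries numbered 3 the counts were 30 and 3, beside 24.0% and 21.4%.

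The 26 whose ratio rose were split by the calls of 5-Ph-IAA against DMSO alone. In that comparison 7 had a divergent transcript called higher and 5 a partner called lower (CNN3, CTBP1, EIF2AK3, ICMT and ZDHHC12). Another 1 had only its partner called higher (KLHL7), and 13 had neither gene called. Of these 13, ATP6AP1-DT, DPY19L3-DT and EPM2A-DT were called higher with both drugs against prexasertib. ICMT-DT had 2.60, 2.77 and 3.72 CPM with 5-Ph-IAA, against 1.66, 2.82 and 2.18 CPM with DMSO, while ICMT had 87.0, 95.3 and 89.3 CPM against 146, 124 and 147 CPM. The divergent groups overlapped and those of the partner did not. The pairs with the largest differences had a divergent transcript with few reads, and of these OSMR-DT and EPM2A-DT entered only through libraries with 5-Ph-IAA. OSMR-DT, beside the gene of the oncostatin M receptor, had 12, 13 and 7 counts with 5-Ph-IAA, against 1, 0 and 4 with DMSO, and overlaps LINC01265 on the same strand. EPM2A-DT had 9, 11 and 15 counts with 5-Ph-IAA, against 3, 2 and 1 with DMSO. The ratio rose by 1.26 ± 0.32 for KBTBD6-DT (log2 with SE, limma adjusted p = 0.0047) and by 1.22 ± 0.35 for TNKS2-DT (limma adjusted p = 0.01). Both needed libraries with 5-Ph-IAA to enter.

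SP2-DT showed the opposite. It had 3.49, 3.03 and 5.01 CPM with 5-Ph-IAA, against 3.17, 3.17 and 4.90 CPM with DMSO, and these groups overlapped. SP2 had 87.8, 87.2 and 72.5 CPM with 5-Ph-IAA, against 48.7, 51.3 and 44.4 CPM with DMSO, with no overlap, so the ratio fell (-0.73 ± 0.21, limma adjusted p = 0.01). The ratio also fell for TMCC1-DT, beside the gene of an endoplasmic reticulum membrane protein (-0.65 ± 0.24, limma adjusted p = 0.0392), and RNASEH1-DT (-0.31 ± 0.11, limma adjusted p = 0.0353), and neither call held without the libraries numbered 3.

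With prexasertib the ratio rose for 4 of 100 divergent pairs and fell for 0 by limma, beside 5.93% and 4.10% of all 1147 pairs. For the 85 pairs with a mean count of at least 10 the counts were also 4 and 0. The block gave 12 higher and 1 lower, beside 11.6% and 9.24% of all pairs, and without the libraries numbered 3 the counts were 6 and 0, beside 10.2% and 8.48%. RBM33-DT, beside the gene of an RNA-binding protein, had 6.95, 7.09 and 4.85 CPM with prexasertib, against 4.90, 4.84 and 4.05 CPM with DMSO, while RBM33 had 33.4, 33.8 and 34.0 CPM against 51.6, 49.5 and 44.4 CPM. RBM33 fell (-0.53 ± 0.11, edgeR adjusted p = 0.0117), its divergent transcript was not called (0.46 ± 0.22, edgeR adjusted p = 0.304), and the ratio rose by 0.93 ± 0.14 (limma adjusted p = 0.000504). The ratio also rose for OSER1-DT (0.79 ± 0.19, limma adjusted p = 0.0146), C2orf49-DT (0.53 ± 0.16, limma adjusted p = 0.0484) and NUP50-DT (0.42 ± 0.13, limma adjusted p = 0.0453). The calls for C2orf49-DT and NUP50-DT were lost without the libraries numbered 3 and in nearly every fit that left out 1 library.

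Other genes of like abundance moved the same way. With 5-Ph-IAA against DMSO, 45 divergent transcripts with a mean log2 CPM from -1 to 1 had a median log2 fold change of 0.48, beside 0.36 for 1895 other genes in that range. From 1 to 3 the medians were 0.27 for 49 divergent transcripts and 0.20 for 2282 other genes. Of the other genes 6.65% rose and 0.95% fell in the lower range and 10.8% rose and 2.50% fell in the upper, beside 4 and 5 divergent transcripts that rose and 0 that fell in either. For both drugs against prexasertib the medians were 0.51 beside 0.37 in the lower range and 0.24 beside 0.20 in the upper. The lower range holds divergent transcripts that entered only through libraries with 5-Ph-IAA, so its excess over other genes is partly set by the entry rule. Over all divergent transcripts tested, leaving them out moved the median from 0.38 to 0.35 against DMSO and from 0.35 to 0.30 against prexasertib. The 772 other lncRNA genes tested had 10.8% called higher and 4.15% lower with 5-Ph-IAA against DMSO, with a median of 0.21, and 10.8% of the divergent transcripts were called higher. Of the 69 divergent transcripts that overlap neither their partner nor another gene, 6 rose and 1 fell against DMSO, with a median of 0.20, and 5 rose and 1 fell with both drugs against prexasertib, with a median of 0.23. These were 8.70% and 1.45%, beside 9.65% and 12.2% of all genes, and 7.25% and 1.45%, beside 7.85% and 10.4%. The block moved these counts to 10 and 3 against DMSO (14.5% and 4.35%, beside 19.0% and 23.6% of all genes). Against prexasertib it moved them to 11 and 4 (15.9% and 5.80%, beside 17.2% and 19.9%). Dropping the libraries numbered 3 gave 8 and 2 in each (11.6% and 2.90%). All genes then had 16.7% and 19.3% against DMSO and 13.1% and 17.4% against prexasertib.

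**Figure D4:**
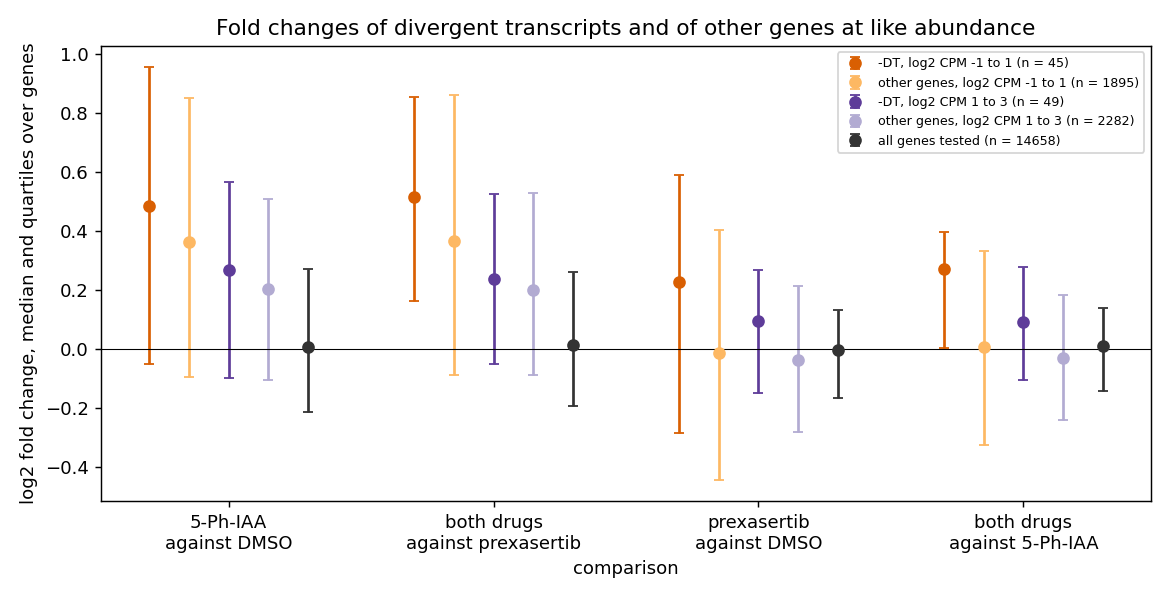
Median log2 fold change with quartiles over genes (points and bars) for divergent transcripts and other genes in 2 ranges of abundance, and for all 14658 genes tested, in 4 comparisons. In the comparisons with 5-Ph-IAA the quartile ranges of divergent transcripts and of other genes at like abundance overlap, and the medians of all genes lie near 0. The divergent transcripts of the lower range include those that entered only through libraries with 5-Ph-IAA.

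Genes for proteins that end or degrade upstream transcripts were counted in the same fits, in which 9.65% of all genes rose and 12.2% fell against DMSO and 7.85% rose and 10.4% fell against prexasertib. Of 9 genes for exosome adaptors and the cap-binding complex, 1 rose and 4 fell with 5-Ph-IAA against DMSO, and 1 rose and 5 fell with both drugs against prexasertib. SRRT, which encodes the cap-bound adaptor ARS2, fell by 0.49 ± 0.10 against DMSO (edgeR adjusted p = 0.0043) and by 0.50 ± 0.10 against prexasertib (edgeR adjusted p = 0.0046). ZC3H18, which links the cap to the exosome, rose by 0.26 ± 0.059 (edgeR adjusted p = 0.00759) and by 0.24 ± 0.059 (edgeR adjusted p = 0.0124) in the same 2 comparisons. PABPN1, the nuclear poly(A)-binding protein, fell by 0.49 ± 0.13 against DMSO (edgeR adjusted p = 0.0185), and ZCCHC8, a subunit of the NEXT adaptor, fell by 0.42 ± 0.083 with both drugs against prexasertib (edgeR adjusted p = 0.00305).

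Of 13 nuclear exosome genes, 1 rose and 2 fell against DMSO and 0 rose and 2 fell with both drugs against prexasertib. The ring subunit EXOSC2 fell by 0.59 ± 0.12 (edgeR adjusted p = 0.00327) and by 0.38 ± 0.12 (edgeR adjusted p = 0.0409) in these 2 comparisons. EXOSC4 fell by 0.66 ± 0.18 against DMSO (edgeR adjusted p = 0.0221) and EXOSC8 fell by 0.41 ± 0.12 against prexasertib (edgeR adjusted p = 0.0252), while MPHOSPH6, an exosome-associated protein, rose by 0.41 ± 0.11 against DMSO (edgeR adjusted p = 0.0197). Of 21 genes for early termination, most of them Integrator subunits, 6 rose and 3 fell against DMSO and 4 rose and 5 fell against prexasertib. INTS14 rose by 0.54 ± 0.071 (edgeR adjusted p = 0.000168) and by 0.46 ± 0.071 (edgeR adjusted p = 0.000641). INTS2 rose by 0.48 ± 0.078 against DMSO (edgeR adjusted p = 0.000777), and INTS5 rose by 0.56 ± 0.12 with both drugs against prexasertib (edgeR adjusted p = 0.00503). INTS6 fell by 0.55 ± 0.11 with both drugs against prexasertib (edgeR adjusted p = 0.00414), and WDR82, which binds PNUTS, fell by 0.38 ± 0.086 against DMSO (edgeR adjusted p = 0.00628). PPP1R10, the phosphatase partner PNUTS, fell by 0.45 ± 0.076 (edgeR adjusted p = 0.000954) and by 0.63 ± 0.075 (edgeR adjusted p = 8.23e-05). Of the 3 U1 snRNP proteins, 2 fell against DMSO, SNRNP70 by 0.21 ± 0.070 (edgeR adjusted p = 0.0466) and SNRPA by 0.26 ± 0.083 (edgeR adjusted p = 0.0404). SNRPA also fell by 0.37 ± 0.083 with both drugs against prexasertib (edgeR adjusted p = 0.0072).

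Library size as the only scaling moved these lists towards higher values, as it did all genes (3018 higher and 986 lower against DMSO, 2569 and 889 against prexasertib). Against DMSO it gave 1 higher and 1 lower for the adaptors, 3 and 2 for the exosome, 7 and 3 for early termination and 0 and 0 for the U1 proteins. Against prexasertib it gave 1 and 2, 0 and 0, 8 and 3, and 0 and 1 in the same order. SRRT stayed lower and ZC3H18, INTS14 and INTS5 higher in both comparisons, and PPP1R10 stayed lower. PABPN1, SNRNP70 and SNRPA against DMSO, and EXOSC2, EXOSC8 and WDR82 against prexasertib, were among those no longer called. Under the block the exosome list had 2 higher and 5 lower against DMSO and 0 and 5 against prexasertib. Dropping the libraries numbered 3 gave it 2 and 5 against DMSO and 1 and 4 against prexasertib. The adaptors had 1 higher and 6 lower in both comparisons with the block. The termination list had 6 and 6, and 5 and 8, with the block. The U1 list had 0 and 2 in both comparisons with the block and without the libraries numbered 3. With the block 19.0% of all genes rose and 23.6% fell against DMSO, and 17.2% and 19.9% against prexasertib. Without the libraries numbered 3 these shares were 16.7% and 19.3% against DMSO, and 13.1% and 17.4% against prexasertib.

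With prexasertib against DMSO, the exosome list had 1 higher and 0 lower, the adaptors and U1 proteins 0 called in either direction, and the termination list 2 higher and 1 lower. PCF11, a cleavage and termination factor, rose by 0.81 ± 0.14 (edgeR adjusted p = 0.00392), and PPP1R10 rose by 0.71 ± 0.075 (edgeR adjusted p = 0.000129). With both drugs against 5-Ph-IAA, the termination list had 1 higher and 1 lower and the other lists 0 called in either direction by edgeR. PPP1R10 rose by 0.53 ± 0.076 (edgeR adjusted p = 0.00176). With TMM all medians of these lists lay between -0.256 and 0.0959. Whether any of these changes bears on the divergent transcripts was not tested.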

How the data were processed

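RNA was poly(A)-selected with a directional kit, per the labels' protocols. The authors deposited raw counts per gene, whole numbers that were not normalized, with 1 column for each of 12 libraries. Tools listed in the submitters' processing notes include featureCounts 2.0.8 and limma 3.58.1, with hg38 as the build. Those notes name Bowtie2 2.5.3 for the CUT&RUN samples alone; the RNA aligner, annotation and strand setting were not found in the labels used here. Of 28395 gene IDs, 27745 matched a symbol in RefSeq's gene table (GRCh38.p14), and the others held 0.0324% of counts. Coordinates, strands and start regions come from RefSeq, GRCh38.p14.

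Counts were fitted with edgeR 4.0.16 in R 4.3.3 over all 12 libraries: filterByExpr (minimum count 10, minimum total 15), TMM, 1 term per group and the robust quasi-likelihood F-test, adjusted over 14658 genes holding 99.92% of the counts. Pair ratios used limma 3.58.1. The fits were tested first on simulated data, with changes planted only in genes above the level of most divergent transcripts. That run does not speak for transcripts with few reads. Separate cultures are not stated in the labels, so p-values measure only the spread between these libraries, which may be technical. The total of 10830048 to 17789482 counts per library limits precision: a transcript at 1 CPM rests on few reads, and PCR copies were not told apart by molecular identifiers. Same-numbered libraries correlated at 0.22 to 0.633 in their deviations from the group means, and libraries of other numbers at -0.503 to 0.366. These ranges overlap, and the main fits did not pair the samples by number. Pairing by number was used only in the replicate block, an alternative fit. That pairing is not stated in the labels, and the correlations do not settle it for all numbers.

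Alternatives were library size scaling, DESeq2 1.42.0, limma-voom, no filter, a filter at a mean of 1 CPM, a mean count of at least 10, the replicate block, leaving out the libraries numbered 3, and leaving out each library. Added after seeing the data were library size scaling, the block and the fit without the libraries numbered 3 for the gene lists, partners and transcripts without overlap, counts without the transcripts that entered only through 5-Ph-IAA libraries, and the mean count of at least 10 for the pair ratios. Named transcripts were the 6 with the most reads. To these came, in each comparison, up to 6 per direction with the largest change among those called whose groups did not overlap and whose log2 CPM averaged 0 or more. For each ratio effect the 4 largest per direction were added, and for the RNA turnover lists the 2 smallest adjusted p per direction. Others are named as outside that rule or to complete a count. The members, lists and tests were chosen with earlier results of these data known. Of the lists of partner functions, only CEP83 had a divergent transcript here, and it was not called. CUT&RUN files were not used here, and some genes that the rule would name are not reported here.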

Additional observations from a re-analysis of the deposited data

How the results depend on the processing

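With the replicate number as a block, the divergent transcripts called were 23 higher and 4 lower for 5-Ph-IAA against DMSO, 8 and 1 for prexasertib against DMSO, 19 and 4 for both drugs against prexasertib, and 4 higher for both drugs against 5-Ph-IAA. In the pair ratios the block gave 7 lower with 5-Ph-IAA, and 12 higher and 1 lower with prexasertib. Library size as the only scaling gave 22 higher and 0 lower for 5-Ph-IAA against DMSO and 15 and 0 for both drugs against prexasertib. Medians of all genes were then 0.164 and 0.154, and calls over all genes for both drugs against prexasertib split into 2569 higher and 889 lower (1150 and 1524 with TMM). Without the libraries numbered 3, 2 were lower for 5-Ph-IAA against DMSO, 5 higher for prexasertib against DMSO, 13 higher and 2 lower for both drugs against prexasertib, and 1 higher for both drugs against 5-Ph-IAA.

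Leaving out 1 library at a time gave 6 to 15 higher and 0 to 2 lower for 5-Ph-IAA against DMSO (2 lower without 5-Ph-IAA replicate 3, 0 lower without 4 others), with the fewest higher without 5-Ph-IAA replicate 2 and 7 without 5-Ph-IAA replicate 1 or DMSO replicate 2. It gave 0 to 2 higher for prexasertib against DMSO (0 without prexasertib replicate 1, 1 without prexasertib replicate 2, DMSO replicate 1 or DMSO replicate 3), and 4 to 10 higher and 0 to 2 lower for both drugs against prexasertib (4 without both-drugs replicate 2, 5 without both-drugs replicate 3 or prexasertib replicate 1 or 2). The pair ratios ranged over 23 to 28 higher and 1 to 4 lower with 5-Ph-IAA and over 1 to 5 higher with prexasertib. That last count was 1 without both-drugs replicate 2, and 2 when any of 6 libraries was dropped (replicates 2 and 3 of 5-Ph-IAA, 1 and 3 of prexasertib, 1 and 2 of DMSO). DESeq2, limma-voom and both filters kept each count within 1.5 times the reported one.

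Over the 27 named calls and 475 alternative values, the direction never turned, 377 stayed called and 98 did not. These calls were picked for large changes in the same libraries that the alternatives refit, so an unchanged direction is no independent support. These totals include the 5-Ph-IAA ratios of OSMR-DT and EPM2A-DT, with 15 alternatives each. A rise in those 2 was fixed by how they entered, so their values say nothing about stability. The totals also hold MAGOH-DT, KBTBD6-DT and TNKS2-DT, which needed libraries with 5-Ph-IAA to enter. MAGOH-DT and SRP14-DT (5-Ph-IAA against DMSO) and BAIAP2-DT and TMEM161B-DT (both comparisons with the ligand) stayed called in all 19 alternatives. Of these, MAGOH-DT needed libraries with 5-Ph-IAA to enter. RNASEH1-DT was lost in 5 of 19 in each comparison, COPB2-DT and EPCAM-DT in 10, and ATP6AP1-DT in 8. DPY19L3-DT (5 of 19), SRP14-DT against prexasertib (3 of 19) and KBTBD6-DT (3 of 18) were also lost. The cause was not tested, beyond the smaller number of libraries in the fits that leave some out. Depth limits the transcripts with few reads: 31 of the 107 lay under 1 CPM.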
